A study of Drosophila melanogaster with 2 samples.

Results

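The tandem genes polyhomeotic proximal (ph-p) and polyhomeotic distal (ph-d) on the X chromosome carried one of the tallest D19B-GFP peaks in the fly genome, just upstream of a ph-p promoter. Both genes were chosen by the signal of that peak, so the heights, ranks and counts of peaks here are a description and no test was made on them. The 2 genes are 2 of 13968 annotated protein-coding genes. All summits in their bodies and within 10 kb were taken (chrX:2105727-2148371, dm6), which gave 16 of the 30000 regions listed for both libraries. Of these, 11 were among the 4309 peaks that passed the authors' irreproducible discovery rate (IDR) step, which compares the ranks of peaks between replicates. The lists given to that step hold background regions beside peaks by design, and over the joint list 14.4% of regions passed. Here the IDR list was the part of the joint list above a signal of about 117.1, so a passing summit could still rank far lower in one library.

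Chromatin immunoprecipitation with sequencing mapped binding in entire Drosophila melanogaster embryos of the strain D19B-GFP. The flies stably express the zinc-finger protein D19B fused at its C terminus to enhanced green fluorescent protein (GFP), and an antibody against GFP was used. Both libraries, labelled as biological replicates 2 and 3, came from embryos of mixed sex aged 0 to 24 h and form 1 group, with chromatin sonicated to 200 to 800 bp. The control library that the authors used is not analysed here, nor were embryos without the tag, and read depth is unknown from these lists. What drives the transgene and how its level compares with that of native D19B were not given in the sources used here. In whole embryos, strong binding in a few cells and weak binding in many cannot be told apart.

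Polyhomeotic is a core subunit of Polycomb repressive complex 1 (PRC1), which keeps developmental genes such as the Hox genes silent in cells where they were not switched on. Its SAM domain lets the protein form chains, and this is thought to help PRC1 compact chromatin. In the fly the subunit is encoded by ph-p and ph-d, which arose by tandem duplication and still encode very similar proteins. Polycomb response elements (PREs) are the DNA stretches that recruit these complexes, and the ph locus is itself a Polycomb target with such elements near its promoters.

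ph-p (FBgn0004861) spans chrX:2126210-2138371 on the minus strand, 12162 bp, and ph-d (FBgn0004860) spans chrX:2115727-2123286 on the same strand, 7560 bp. ph-p lies upstream of ph-d, with 2923 bp between them. The annotation gives ph-p transcription start sites (TSSs) at 2136622 (transcripts RA and RC), 2136855 (RB) and 2138371 (RD), and ph-d TSSs at 2121792 (RA) and 2123286 (RB). Aligning the copies gave 5 collinear blocks, of which 3 lie at the promoters. The tallest summit, at 2137338, lay between the first and second of the promoter blocks, in 208 bp of ph-p (chrX:2137265-2137472) where ph-d has only 15 bp (chrX:2123697-2123711). Both copies are printed below across this interruption, since the finding turns on it. They are shown on the plus strand of dm6, opposite to transcription, and capitals mark the bases between the aligned blocks.
ph-p, chrX:2137225-2137512: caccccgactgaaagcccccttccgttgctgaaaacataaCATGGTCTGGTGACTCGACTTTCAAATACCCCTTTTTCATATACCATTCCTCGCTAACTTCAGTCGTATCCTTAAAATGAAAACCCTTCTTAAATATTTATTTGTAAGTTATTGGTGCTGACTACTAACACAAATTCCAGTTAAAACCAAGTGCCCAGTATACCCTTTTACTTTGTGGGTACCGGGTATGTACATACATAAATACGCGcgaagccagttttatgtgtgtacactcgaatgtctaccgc
ph-d, chrX:2123657-2123751: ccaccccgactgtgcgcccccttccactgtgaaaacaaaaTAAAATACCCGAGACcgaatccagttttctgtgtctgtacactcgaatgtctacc
The lower-case ends are the aligned flanks and read alike in the 2 copies, whereas most of the capitals in ph-p have no counterpart in ph-d. The summit is base 74 of the 208. The interruption depends on an alignment that reaches the less alike blocks: megablast, which needs closer matches, gave 3 blocks, and the tallest summit lay beyond them.

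The tallest peak had a signal (the authors' height of a peak over the control) of 9619.7 in the list made from both libraries, the joint list. It had 5194.7 in replicate 2 and 4521.3 in replicate 3. It ranked 2 in each of the 3 lists, and 1 of the 836 IDR peaks on X, where the next had 2965.6. It was 15.1 times the next summit of the locus in the joint list, 10.7 times in replicate 2 and 17.5 times in replicate 3. The region spans chrX:2137030-2138130, 1101 bp, and the summit falls in an intron of ph-p-RD, 483 bp upstream of the ph-p-RB TSS. The map of summits across the locus shows this peak standing far above its neighbours.

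**Figure D1:**
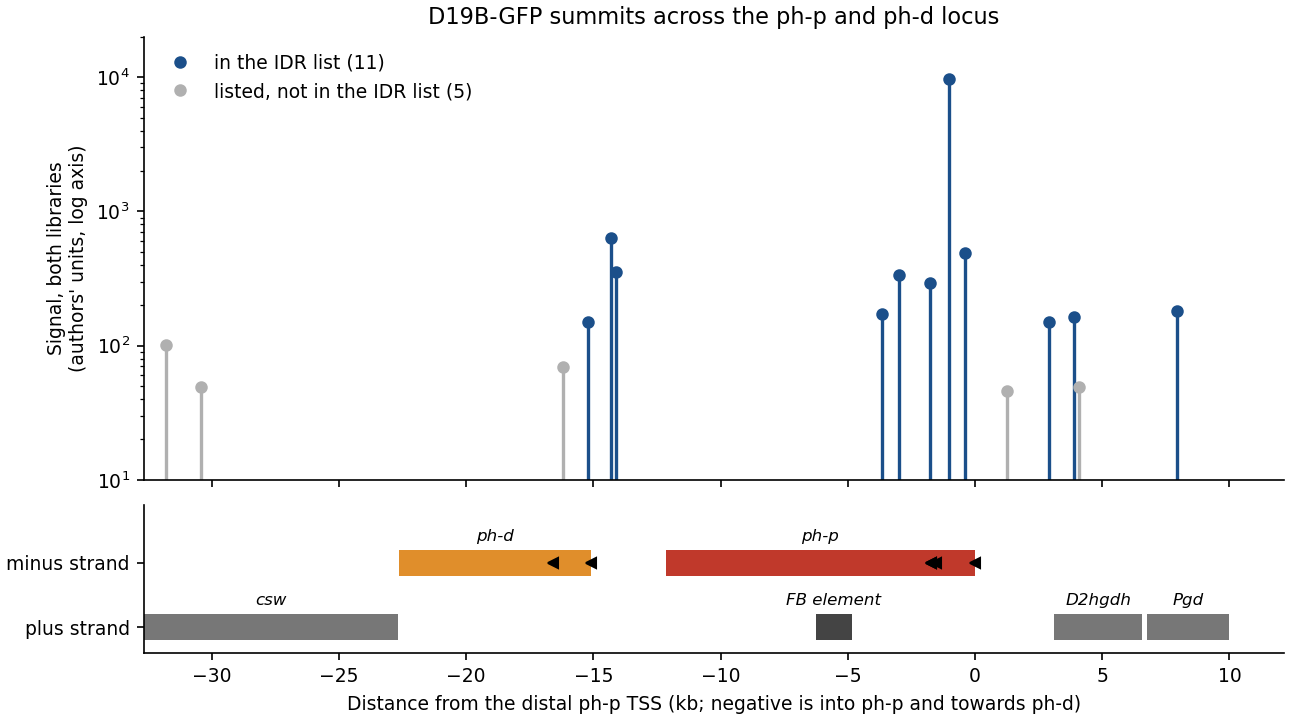
Signal of the 16 listed summits (upper panel, log axis, authors' units, both libraries) by distance in kb from the distal ph-p TSS, with genes by strand and TSSs as arrowheads (lower panel). The summit inside ph-p at 9619.7 towers over the other 10 IDR summits, which lie between 149.7 and 638.4. The 10442 bp between summit 2124268, upstream of ph-d, and the first summit in ph-p have none.

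The other summits of ph-p lay near its promoters. In the 5' UTR of ph-p-RD, 395 bp downstream of that transcript's TSS, summit 2137976 had a signal of 486.3 in the joint list, with 237.5 in replicate 2 and 258.1 in replicate 3. It belongs to the same region as the tallest summit and was the only summit of the locus with a higher signal in replicate 3. Beside the proximal TSS, 26 bp downstream of it in the 5' UTR, summit 2136596 had a signal of 292.5, with 175.8 in replicate 2 and 119.3 in replicate 3. Farther into the gene, in introns, summit 2135391 had 336.1 (227.2 and 113.7 in replicates 2 and 3). Summit 2134710, also intronic, had 172.8 (113.5 in replicate 2 and 67.3 in replicate 3). All 5 ph-p summits thus lay within the 3661 bp next to the distal TSS. The remaining 8500 bp of the gene held no summit of the joint list, though replicate 3 listed a region there with its summit at 2134447, signal 45.5 and rank 3884.

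The tallest summit on the ph-d side was far lower than that of ph-p in every list, though in the joint list it was above the other ph-p summits. Upstream of the gene, 780 bp from the ph-d-RB TSS, summit 2124066 had a signal of 638.4 in the joint list, with 487.7 in replicate 2 and 154.0 in replicate 3. In the same region (chrX:2123903-2124379), summit 2124268 had 356.0, with 328.9 in replicate 2 and 26.5 in replicate 3. The first was high in both libraries, at ranks 291 and 697, and the second stood high in replicate 2 alone, at rank 565 against rank 10310 in replicate 3. In the ph-d 5' UTR, 134 bp downstream of the ph-d-RB TSS, summit 2123152 had 150.5, with 115.7 in replicate 2 and 40.6 in replicate 3. A summit in a ph-d intron, 400 bp upstream of the inner TSS, was listed at 68.8 but did not pass IDR. The 10442 bp between summit 2124268 and the first summit in ph-p held none of the joint list, though replicate 2 had a region of signal 31.8 there and replicate 3 the one of 45.5 in ph-p. Replicate 2 listed 21 regions over the locus, 6 of them without a summit in the joint list, and replicate 3 listed 16, with 2 such regions.

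The neighbours carried small peaks. Upstream of D2hgdh, which encodes a hydroxyglutarate dehydrogenase, summit 2141268 lay 221 bp from a TSS and had a signal of 149.7 (108.4 in replicate 2 and 24.2 in replicate 3). In an intron of the same gene summit 2142248 had 164.1 (101.6 and 57.3 in replicates 2 and 3). In an intron of Pgd, the 6-phosphogluconate dehydrogenase gene, summit 2146323 had 180.6 (109.8 in replicate 2 and 74.0 in replicate 3). Neither csw, which encodes the SHP-type tyrosine phosphatase corkscrew, nor the FB transposable element inserted in ph-p held an IDR summit. Of the 11 IDR summits, 6 were above the median signal of all IDR peaks, 199.5. The lowest IDR summit of the locus had 149.7 and the highest outside the IDR list, in a csw intron, had 100.8, while over the genome the lowest inside had 117.13 and the highest outside 117.11.

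By gene, ph-p held 5 IDR summits in its body and ph-d held 1, where 11.6% of all protein-coding genes had at least 1 and the median gene had 0. At least 5 in the body were found in 81 genes, 0.580% of all. Within 10 kb as well, ph-p had 11 and ph-d had 3, where 58.2% of genes had at least 1. At least as many as ph-p were found in 15 genes, and at least as many as ph-d in 2274. These windows overlap: the 11 of ph-p are all the IDR summits of the locus, with the 3 of ph-d and those at D2hgdh and Pgd among them. Longer genes have more room for summits, and the median protein-coding gene is 2164.5 bp long. The summits fell in introns (5), 5' UTRs (3) and intergenic sequence (3), and 6 of the 11 lay within 500 bp of a TSS. The shares of all IDR peaks in these places were not counted, so these numbers only describe the locus. Beyond the 10 kb flanks the nearest IDR summits were 21716 bp away on the csw side and 50684 bp away on the Pgd side.

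Each of the 11 IDR summits had a summit within 100 bp in both libraries, but their heights compared differently between the libraries. Signal is not scaled between libraries, and over the 3734 IDR peaks matched in both the ratio of replicate 2 to replicate 3 had a median of 1.91, with quartiles of 1.47 and 2.50. At the tallest ph peak the ratio was 1.15, and 440 matched peaks, 11.8%, had a lower one. Among the 98 matched of the 100 tallest peaks, 5 had a lower ratio and the median was 1.93. So the ph peak was relatively taller in replicate 3 than most peaks of its height, as the plot of one library against the other shows.

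**Figure D2:**
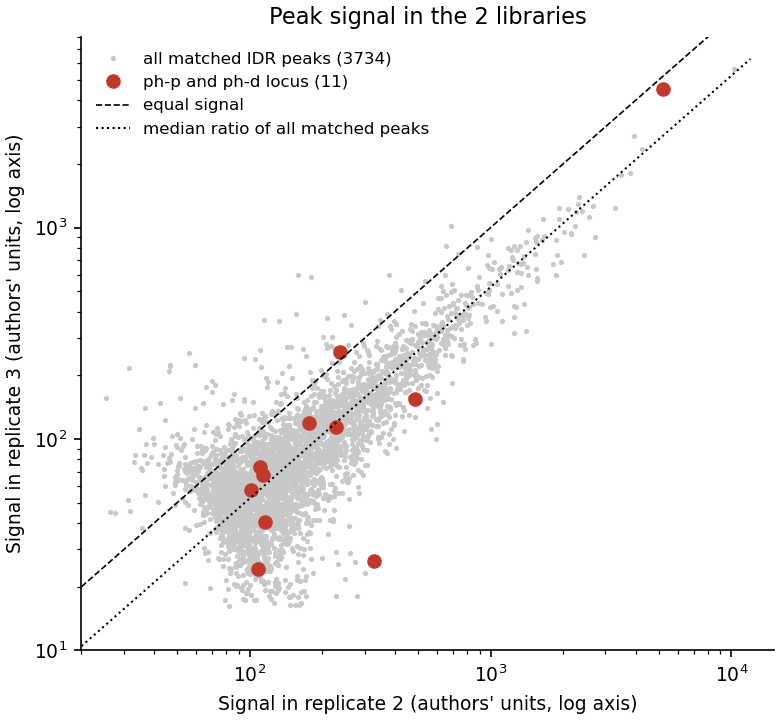
Signal of 3734 IDR peaks in replicate 2 (x axis) and replicate 3 (y axis), both on log axes in the authors' units, with the 11 summits of the ph-p and ph-d locus in red, the line of equal signal dashed and the median ratio dotted. The tallest ph peak lies between the lines, at a ratio of 1.15, and summit 2124268 lies far below them at 12.4.

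Across the locus the ratio ran from 0.920 at summit 2137976 to 12.4 at summit 2124268, with a median of 1.77. On the ph-d side it was 2.85 at summit 2123152, 3.17 at summit 2124066 and 12.4 at summit 2124268. In ph-p it was 1.69 at summit 2134710, 2.00 at summit 2135391, 1.47 at summit 2136596, 1.15 at summit 2137338 and 0.920 at summit 2137976. The 3 values upstream of and in ph-d were above the median of all peaks, and 4 of the 5 values in ph-p were below it. With 1 library for each replicate the spread of a single ratio cannot be had, and the cause of the difference was not tested.

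**Figure D3:**
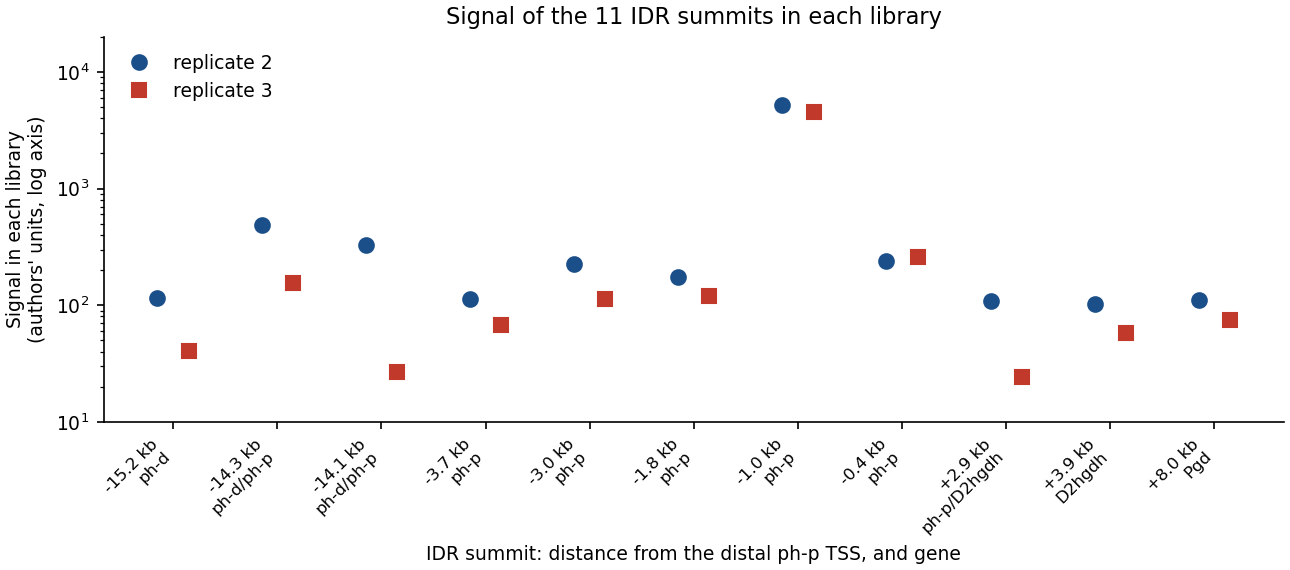
Signal of each of the 11 IDR summits in replicate 2 (blue circles) and replicate 3 (red squares), log axis in the authors' units, ordered by distance in kb from the distal ph-p TSS. The points of the tallest summit nearly coincide (5194.7 and 4521.3), while those of summit 2124268 lie farthest apart (328.9 and 26.5).

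The peaks most like it, by the distance between log2 signals over the 2 libraries, were those nearest to Art3, rdx, cbt and CG9837. The peak 114 bp from a TSS of Art3, an arginine methyltransferase gene, was 0.84 log2 units away and had 3944.2 in replicate 2 and 2714.8 in replicate 3. The peak at rdx, which encodes a ubiquitin ligase adaptor of the Hedgehog pathway, was 0.98 units away with 4249.6 and 2360.9 in replicates 2 and 3. The peak nearest to cbt, the tallest of all at 15866 in the joint list, was 1.03 units away. CG9837 followed at 1.40 units. None had a ratio of the libraries as low as the ph peak, which had the lowest of the 15 tallest peaks.

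The 2 genes could be told apart at their summits. All 36-base words in the windows of 101 bp centred on the 11 summits occurred once in the genome. In the region of the tallest peak 95.7% of 36-base words occurred once, and in the region upstream of ph-d all did. Farther into the genes this differed. The longest block, chrX:2126824-2131227 in ph-p and chrX:2116869-2121323 in ph-d, was 92.0% identical over 4480 aligned columns, and 44.0% of its 36-base words in ph-p and 44.6% in ph-d occurred once. No summit lay in this block on either side. In the FB element 2.13% of such words occurred once. How the authors treated reads that map to more than 1 place was not given in the sources used here, so the part of mapping in the empty stretches was not tested.

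The promoter copies align in 3 blocks, and the summits had unlike places in them. The block nearest the inner ph-p TSSs was 90.7% identical over 529 columns and held no summit in either gene. Then came the 208 bp of ph-p with the tallest summit. The second block was 70.5% identical over 387 columns and again held no summit. Beyond it ph-d has 209 bp where ph-p has 98 bp, and summit 2124066, the tallest on the ph-d side, is base 14 of that stretch. The third block was 81.0% identical over 358 columns and held a summit in each gene, 2137976 in ph-p and 2124268 in ph-d. Their positions correspond. The base of ph-d aligned with the ph-p summit is 13 bp from the ph-d summit, and the base of ph-p aligned with the ph-d summit is 16 bp from the ph-p summit. By position, the tallest summit of each gene therefore lay in sequence without an aligned counterpart. The one aligned pair had lower signals, 486.3 in ph-p and 356.0 in ph-d. On the ph-d side both summits are close to an edge of the unaligned stretch, which ends at 2124261. In replicates 2 and 3 they kept to the same sides, at 2124063 and 2124082 for summit 2124066, and 2124264 and 2124288 for summit 2124268. In replicate 3, however, summit 2124268 had a signal of only 26.5, at rank 10310. The sonicated fragments were longer than these distances to the edges, so the ph-d signal cannot be assigned to aligned or unaligned sequence. The same limit holds for the tallest ph-p summit, at base 74 of its 208 bp, since fragments there also reach the aligned blocks. Of its region of 1101 bp, 57.9% was identical in ph-d. Its signal therefore cannot be assigned to the unaligned stretch alone.

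**Figure D4:**
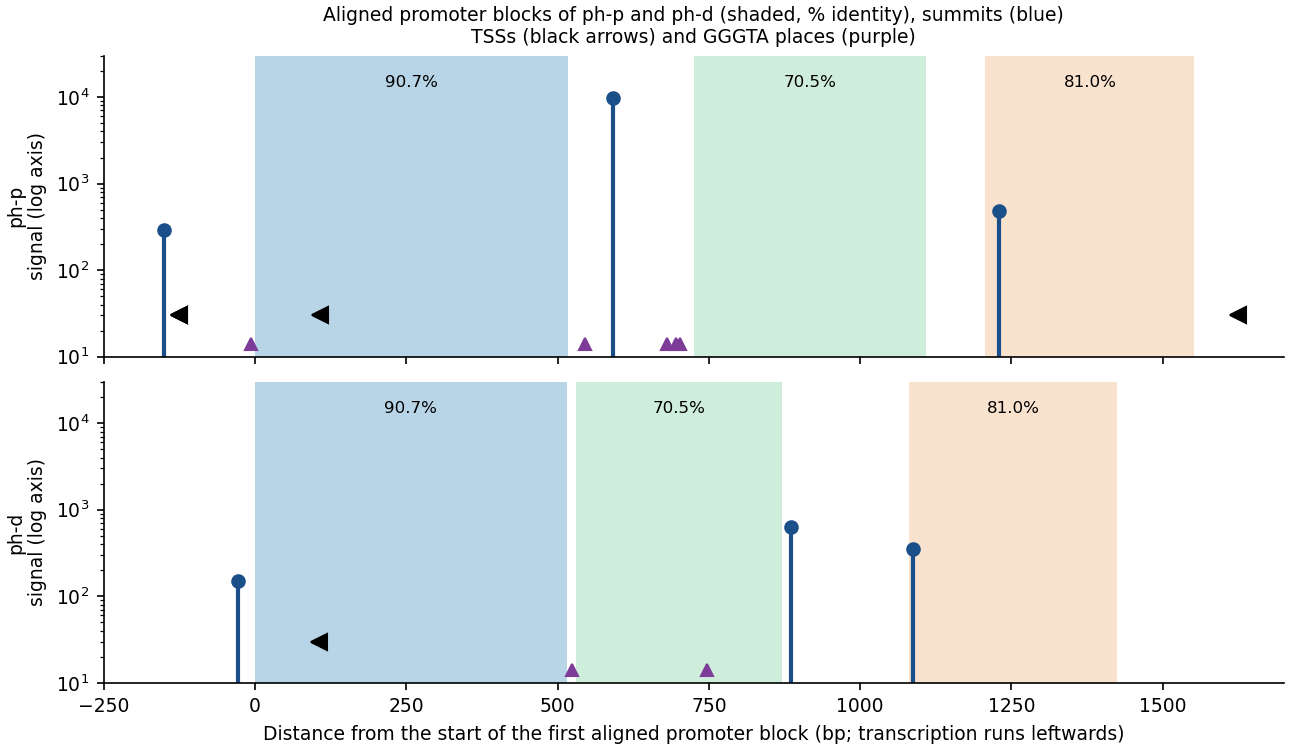
IDR summits (blue, log axis, authors' units) and GGGTA places (purple triangles) in the promoters of ph-p (upper) and ph-d (lower), by distance in bp from the start of the first promoter block, with aligned blocks shaded, their percent identity printed and TSSs as black arrowheads. The summit of 9619.7 lies in a gap between the first and second blocks that is wide in ph-p and narrow in ph-d.

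The ph-d stretch of 209 bp is printed because it holds the tallest summit on the ph-d side and lacks an aligned partner in ph-p. It is on the plus strand of dm6, and no letter is in capitals because none of the GGGTA words discussed next occur in it.
ph-d, chrX:2124053-2124261: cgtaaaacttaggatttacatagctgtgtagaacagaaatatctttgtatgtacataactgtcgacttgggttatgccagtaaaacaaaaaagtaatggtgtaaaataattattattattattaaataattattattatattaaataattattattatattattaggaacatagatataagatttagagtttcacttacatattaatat
It is rich in A and T, with 21.1% G and C, whereas the 208 bp in ph-p have 37.5%. A search of the genome with the ph-p stretch found 1 other similar place, with 28 of 30 bases identical. The same search with the ph-d stretch found 2255 other places, the best with 76 of 92 bases identical.

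Both strands of 101 bp at each summit were searched for 12 short words tied to Polycomb recruitment, insulators or core promoters, or typical of repeats and E-boxes. The window of the tallest summit held GAAAA, the word of the high mobility group protein Dsp1, at 2 places, and none of the other 11 words. GAAAA was in 2 of the 11 windows, against 46.1% of all IDR windows and 45.5% of the windows of the 4309 lowest-ranked listed regions. With 100 bp on each side of the summit it was in 9 of 11, against 71.3% and 68.9%. GCCAT, the core of the Pho site, was in 0 of the 11 windows, against 12.7% of IDR windows and 19.1% of low-ranked ones. GAGAG, the GAGA factor word, was in 1 of 11, against 8.73% and 11.1%. TGAGNG, the Zeste word, was in 3 of 11, against 9.47% and 12.3%. In the wider windows TGAGNG was in 4 of 11, against 21.4% and 23.6%, and GCCAT in 0 of 11, against 24.3% and 35.3%. GAGAG and TGAGNG can share bases. TATAAA, the TATA box, was in 2 of 11, against 22.5% and 12.8%, and in the wider windows in 5 of 11, against 37.0% and 24.6%. CACACACA was in 1 of 11, against 0.719% and 2.62%. ACAGGGTA, a word named earlier for these peaks, was in 2.97% of IDR windows and 0.371% of low-ranked ones, and occurred nowhere in the locus. TATCGATA, CGATA (which it contains), GCAGCAGC, CAGCTG and CACATG were in 0 of 11.

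The shorter word GGGTA, part of ACAGGGTA and chosen after the data were seen, was in 2 of the 11 windows, against 21.3% of IDR windows and 10.4% of low-ranked ones. The windows are those of the tallest summit and of summit 2134710, printed on the plus strand with GGGTA or its reverse complement TACCC in capitals.
ph-p, chrX:2137288-2137388: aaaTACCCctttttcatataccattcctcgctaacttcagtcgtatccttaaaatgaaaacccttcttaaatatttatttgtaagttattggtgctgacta
ph-p, chrX:2134660-2134760: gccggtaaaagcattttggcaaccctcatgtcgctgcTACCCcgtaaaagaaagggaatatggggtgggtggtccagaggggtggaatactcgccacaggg
The 208 bp of ph-p hold 4 places of GGGTA and the 15 bp of ph-d hold 1. In ph-p they lie on both sides of the summit. Within 150 bp on each side of the tallest summit there were 4 of the 33 places in the locus, and 0.673% of IDR windows and 0.186% of low-ranked windows of that width had as many. The share depends on the width: a window of 207 bp at the summit held 2 places, and 10.1% of IDR windows and 2.46% of low-ranked windows had as many. Most places in the locus had no summit by them, as 3 of the 33 lay within 100 bp of an IDR summit. The longer AGGGTAT, also chosen after the data were seen and overlapping GGGTA, was at 3 places in the locus, 1 of them in the 208 bp. A match is a description of the letters, and whether D19B reads these words was not tested.

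Among 32 genes of the Polycomb group and its partners, 8 (25.0%) had an IDR summit within 500 bp of a TSS, where 15.3% of all protein-coding genes did. These were ph-p and ph-d, the PRC1-type RING-finger gene l(3)73Ah, the PRC2 genes E(z) and Su(z)12, and the PRE-binding Trl, psq and lolal. The count differed between the libraries: it was 4 among the 4309 tallest regions of replicate 3 alone and 9 among those of replicate 2 alone. The share of all genes was not counted for these 2 lists. A summit in the body was found in 15 (46.9%), where 11.6% of all genes had one, but the listed genes have a median length of 7348.5 bp. With either position counted, 6 of 9 PRC1 genes, 3 of 8 PRC2 genes and 7 of 10 PRE-binding or other genes had a summit, where 20.7% of all protein-coding genes did. ph-p and ph-d were chosen by the signal of the ph-p peak, and both are among the 8, the 15 and the 6 PRC1 genes. These shares are therefore not free of that choice, and no excess in the group is read from them. No IDR summit was found at the 3 PhoRC genes (pho, phol and Sfmbt) or the 2 PR-DUB genes (caly and Asx). Nor was one found at Pc, the chromodomain subunit of PRC1, or Sce, its ubiquitin ligase. ph-p was far above the rest. The tallest summit at Trl, which encodes the GAGA factor, had a signal of 1953.3 in the joint list, with 1231.8 in replicate 2 and 729.1 in replicate 3. At Kdm2, a histone demethylase gene of the RING-associated PRC1 variant, it had 869.8 (481.4 and 405.1 in replicates 2 and 3). At Su(z)2, a paralogue of the PRC1 gene Psc, it had 576.9 (298.4 in replicate 2 and 276.5 in replicate 3). The 2 library values were near each other at Kdm2 and Su(z)2, as at ph-p. They were also near at sxc (179.7 in replicate 2 and 160.4 in replicate 3) and Psc (87.0 and 70.7). They lay farther apart at Trl, E(z) and ph-d. The same held for jing (153.9 in replicate 2 and 74.4 in replicate 3), grh (134.4 and 88.3) and lolal (81.0 and 40.6). The group thus had no common pattern, and signal is not scaled between libraries, so near-equal values do not mean agreement. At E(z), the histone H3 lysine methyltransferase of PRC2, a summit 50 bp from the TSS had 359.9, with 281.6 in replicate 2 and 71.6 in replicate 3. The O-GlcNAc transferase gene sxc had 331.7, psq 279.0, jing, which encodes a zinc-finger partner of PRC2, 228.7, and the transcription factor gene grh 226.2. l(3)73Ah had 191.2, Dsp1 176.7, Su(z)12 175.8, Psc 166.3, ph-d 150.5 (its upstream summit of 638.4, above Su(z)2, lies beyond the 500 bp), lolal 124.1 and the chromodomain gene corto 122.1. The tallest summits of l(3)73Ah, Dsp1, Su(z)12 and corto had no summit within 100 bp in replicate 3. That of psq had none in either library. The median of these tallest signals was 227.5, and 226.2 without ph-p.

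**Figure D5:**
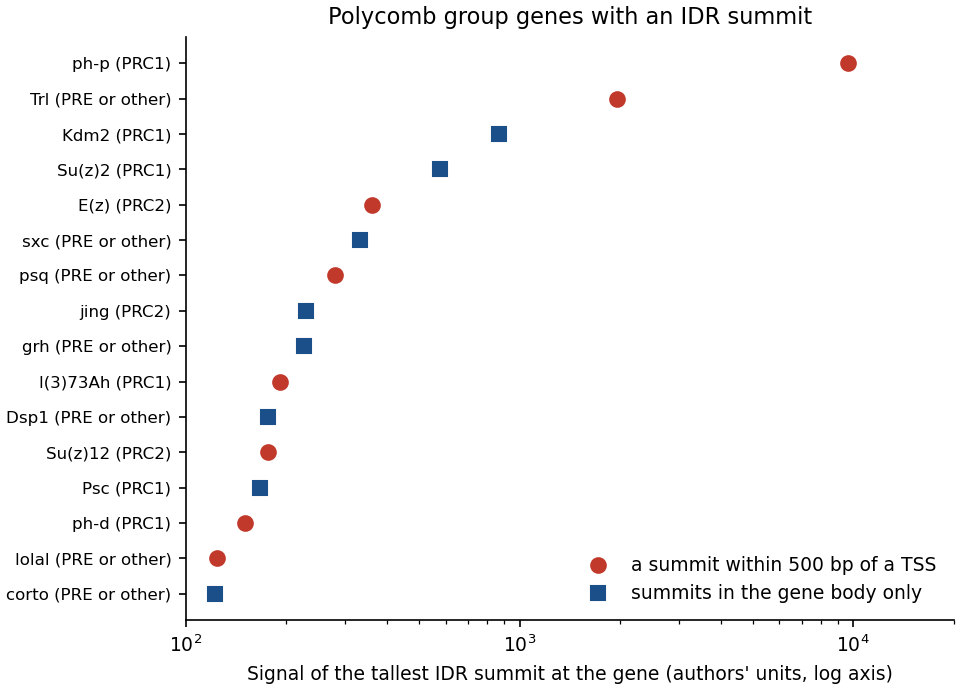
Signal of the tallest IDR summit at each of the 16 Polycomb group genes that had one (log axis, authors' units, both libraries), with circles for genes with a summit within 500 bp of a TSS and squares for genes with summits in the body alone. ph-p at 9619.7 stands above Trl at 1953.3, and ph-d is among the lowest at 150.5, since its summit of 638.4 lies 780 bp upstream and is not counted here.

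The same picture came from the authors' lists on the older build dm3. All 11 summits were found there by their spacing, within 10 bp, and all 11 were in the dm3 IDR list of 3906 peaks. The tallest had a signal of 9618.2 in the joint list, with 5193.9 in replicate 2 and 4520.8 in replicate 3, again at rank 2. These lists come from the same reads and are not further replicates.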

How the data were processed

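The deposited files are lists of regions on dm3 and dm6 for each of the 2 libraries, for both together and after IDR, per the deposited file records. Those before IDR hold 30000 regions each, peaks and background regions together. The signal is the authors' peak height over a control, not scaled between libraries. The −log10 q-value and the summit offset in bp are likewise the authors' deposited values, and the q-value of all 11 IDR summits was at the list's highest, 3.80. The aligner, peak caller and IDR threshold were not given in the sources used here.

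A summit is the region start plus the offset, 1-based. Sequence came from Drosophila genome release 6, which shares dm6 coordinates, and genes from Ensembl 115 (FlyBase 6.54). Library summits within 100 bp of an IDR summit were matched. The copies were aligned with blastn 2.17.0 and tables made with Python 3.11.15, numpy 2.4.6 and pandas 2.3.3. The word search and the count of words that occur once in the genome were checked on made sequences.

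Named are ph-p, ph-d, overlapping genes, listed Polycomb genes with a summit, and the genes nearest the 4 most similar peaks. Members, lists and words were chosen with earlier results of these data known, and no test was made. Alternatives were other flanks, windows, word lengths and scorings, single libraries and dm3.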

Additional observations from a re-analysis of the deposited data

How the results depend on the processing

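Of 27 alternative settings, 18 kept the reported values within the limits set and 9 moved them. The 11 summits of the locus became 6 when only IDR peaks above the median signal counted, and single libraries gave 9 to 11: in the 4309 tallest regions of replicate 3 the summits 2123152, 2124268 and 2141268 were missing, and 1 other region of that library counted. The rank of the tallest peak was 2 in every list tried, and a rank by q could not be had because the highest q is shared by 3171 peaks. Its ratio between the libraries was 0.601 of the median of all matched peaks. The 8 Polycomb group genes include ph-p and ph-d. Their number became 15 with summits in the body and 3 with only the peaks above the median signal. Single libraries gave 4 to 9. The share of all genes was not counted for the peaks above the median or for single libraries. Of the listed words, the whole region of the tallest peak held 8 where the window held 1. The share of that region identical to ph-d was 57.9%, where that of the window was 0. Words of 50 and 75 bases occurred once in 86.0% and 87.3% of the locus, where those of 36 did in 84.9%. The dm3 lists and 2 other alignment scorings were chosen after seeing the data: the default scoring of blastn gave the same 208 bp and 15 bp, and megablast, counted above as keeping the value because the summit stayed outside any block, gave 3 blocks and no such interruption. No paired analysis was possible because both libraries form 1 group. Read depth, which would set how small a peak could be seen, is unknown.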
